A study of Homo sapiens with 18 samples.

Results

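TC-32 and TC-71, a pair of Ewing sarcoma cell lines, were compared at baseline, after transfection with a control siRNA. The comparison took the 3 TC-32 and the 3 TC-71 libraries labelled siNeg, 6 of the 18 libraries of the series, and matched genes by identifier. The series also holds the line A673 and an siRNA against FLI1 in all 3 lines, and its title names the regulation of ETS1 by the EWSR1::FLI1 fusion as its subject. Both groups were reverse transfected with the same non-targeting siRNA at 20 nM, and the column names give 48 h for both. Both lines were grown in RPMI 1640 with serum, and A673 in DMEM. Each line is 1 established culture, and which columns are TC-32 and which TC-71 rests on the name of each table. The labels do not say whether the 3 replicates of a line were separate cultures, so the p-values measure only the spread between these samples.

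Ewing sarcoma is a bone and soft tissue cancer driven by a fusion of EWSR1 with an ETS family transcription factor, most often FLI1. The fusion protein binds GGAA repeats and activates genes such as NKX2-2, STEAP1 and CCND1. It also holds down genes of a mesenchymal programme, among them TGFBR2, IGFBP3 and collagens. Established lines share the fusion but were derived from different tumours, and they can differ in tumour suppressor status and in their developmental gene expression.

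The 6 libraries held 19685354 to 28491374 counts, so depth was similar. Within a line, log2 CPM (counts scaled to a common library total, with TMM factors) correlated at 0.9969 or more between replicates across genes, and the median biological coefficient of variation was 5.02%. Where 1 level per line is given below, it is the mean of the 3 libraries. All 10 Ewing sarcoma markers chosen had enough counts over the 6 libraries to be tested, which does not by itself place each in both lines. Their summed level was 2270 to 2330 CPM in the TC-32 libraries and 2340 to 2380 CPM in the TC-71 libraries. The close sums hide differences between single markers, since 2 of the 10 were called at 4-fold toward each line. The defining markers PTPRC of blood cells, MYOD1 of skeletal muscle and MLANA of melanocytes were at or near 0, with line means of at most 0.0438 CPM. Summed over the whole list, blood markers were at 2.49 CPM in TC-32 and 0.654 CPM in TC-71. In the same order, skeletal muscle markers summed to 4.36 and 9.85 CPM, and melanocyte markers to 2.42 and 6.37 CPM. From these lists, 1 blood and 1 melanocyte marker were called at 4-fold toward TC-32, and 0 toward TC-71. Among epithelial markers, EPCAM had line means of 0.12 and 0.775 CPM, whereas KRT18, a keratin that many cell lines carry, had 104 and 120 CPM. Among endothelial markers, the growth factor receptor KDR held most of the 37.9 CPM summed in TC-32, and VWF was at 0.031 and 0 CPM.

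The line could not be separated from how its reads were counted, because the TC-32 table names RSEM and the TC-71 table names Subread. Several gene classes differed between the tables, and the line and the counter cannot be told apart in them. The 104 small RNA genes tested had a median log2 ratio of TC-32 over TC-71 of -6.84, and 94 of them were at least 4-fold higher in TC-71. The 1935 long noncoding RNA genes had a median of -1.28, with 192 called toward TC-32 and 689 toward TC-71. The 741 genes with over 50% of their exon bases inside another gene on the same strand had a median of 1.65. Their 4-fold calls were 348 (47.0%) toward TC-32 and 84 (11.3%) toward TC-71. The 342 genes with over 50% of their exon bases opposite another gene had a median of -0.8. Of these, 19 (5.56%) were called toward TC-32 and 87 (25.4%) toward TC-71. EEF1G, a translation elongation factor subunit that every cell uses, was at 2710 CPM ± 47.7 (SD, n = 3) in TC-32 and at 0 counts in every TC-71 library, and 99.7% of its exon bases lay within another gene. In these bulk cultures, fewer expressing cells and less RNA per cell cannot be told apart. A673 was also counted with RSEM per its table name, so its level is given beside many genes below. A difference between TC-32 and A673 is then one within 1 counter. The A673 control libraries were deeper, at 114564479 to 117548766 counts, so a single read stands for a lower CPM there. The A673 values were scaled across all 18 libraries, and no test was made with them. Antisense partners are named by their share of exon bases on the other strand, since no source used here gives the strand setting.

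Most genes differed at some fold. Of 16256 genes tested outside the X and Y chromosomes, 14048 (86.4%) had an edgeR adjusted p under 0.05, 6900 (42.4%) higher in TC-32 and 7148 (44.0%) higher in TC-71. In 14085 genes (86.6%) the 3 libraries of one line did not overlap those of the other. Only differences of 4-fold or more are therefore called here. At that size 4200 genes (25.8%) were called, 1851 (11.4%) higher in TC-32 and 2349 (14.5%) higher in TC-71. Among the 13222 protein-coding genes the shares were 11.4% and 10.1%, and among the 6163 protein-coding genes whose exons overlap no other gene they were 9.67% and 12.1%. These shares are the background against which each gene group below is to be read. Scaling by library size alone moved the median log2 ratio of all genes from -0.03 to -0.38. It also moved the share of 4-fold calls that were higher in TC-32 from 44.1% to 36.8%, and the share of all calls from 49.1% to 35.0%.

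**Figure D1:**
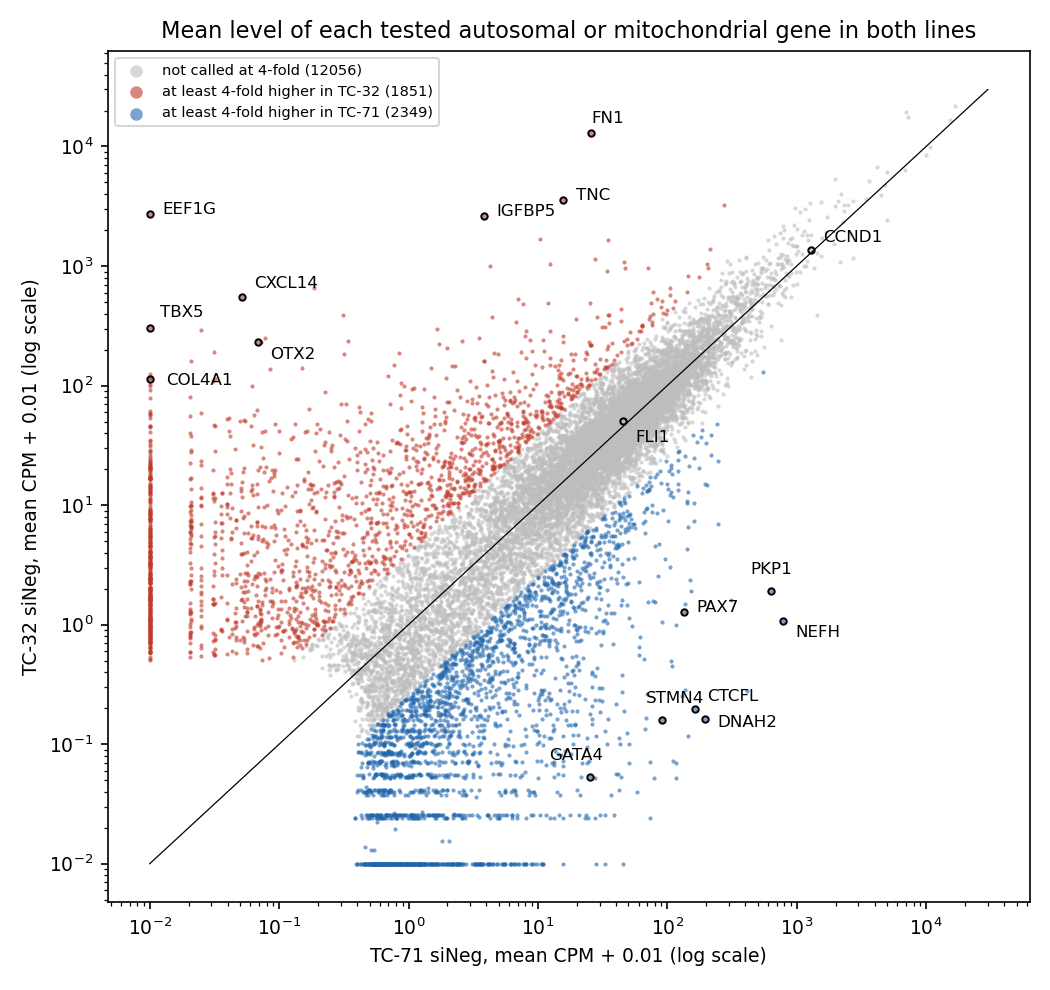
Mean CPM plus 0.01 over the 3 control siRNA libraries of TC-71 (x axis, log scale) and of TC-32 (y axis, log scale) for each of the 16256 genes tested, with the line of equal level drawn. Red marks the 1851 genes called 4-fold toward TC-32 and blue the 2349 called 4-fold toward TC-71. FLI1 and CCND1 lie near the line, whereas FN1, TNC and TBX5 lie far above it and NEFH, PKP1 and CTCFL far below it.

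Outside the gene lists, CXCL14 and TGFBI were among the 12 genes with the largest ratios toward TC-32. The chemokine gene CXCL14 was at 548, 578 and 539 CPM in TC-32 and at 0, 0 and 0.124 CPM in TC-71, 1 TC-71 library alone holding any read. Its ratio was 4660-fold with each TC-71 library held at 3 counts or more, and A673 held 1.88 to 2.34 CPM. TGFBI, a matrix protein induced by TGF-beta, was at 645, 674 and 662 CPM against 0.0986, 0.0895 and 0.342 CPM, a log2 ratio of 11.74 ± 0.0979 (SE; edgeR adjusted p = 8.53e-57), or 12.68 without TC-71 replicate 3. TGFBI was not particular to TC-32, with 571 to 586 CPM in A673. The chemokine receptor gene CXCR4 was at 164, 162 and 158 CPM in TC-32 and at 1, 0 and 0 counts in TC-71, at least 1480-fold higher. A673 lay between the lines for CXCR4, at 4.85 to 5.34 CPM. SALL1, a zinc finger regulator of kidney and limb development, was at 293, 284 and 292 CPM against 0, 1 and 0 counts, at least 2670-fold higher in TC-32.

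The other genes ranked toward TC-32 were FLNC, an actin cross-linker (393 against 0.301 CPM), FREM2, a basement membrane protein (at least 1040-fold), and CHI3L1, a secreted glycoprotein (at least 1010-fold). DHRS3, a retinaldehyde reductase, GALNT5, a glycosyltransferase, EPB41L3, a membrane skeleton protein, and NTM, a neural cell adhesion molecule, completed the group with EIF3CL. EIF3CL has a near-identical copy, EIF3C, so its 182 CPM in TC-32 and 0.31 CPM in TC-71 are uncertain. CHI3L1 and GALNT5 were also low in A673, at 0.0272 CPM or less in each A673 library, whereas NTM and FREM2 were at 32.1 CPM or more there.

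Toward TC-71, the ranked genes were led by DNAH2, a heavy chain of the dynein motor of cilia. DNAH2 was at 181, 187 and 217 CPM in TC-71 and at 0.233, 0.0838 and 0.141 CPM in TC-32, a log2 ratio of -10.30 ± 0.139 (SE; edgeR adjusted p = 2.87e-33). The lines did not overlap, and A673 was as low as TC-32, at 0.197 CPM or less. SLC34A2, a sodium phosphate cotransporter, was at 146, 137 and 149 CPM against 0.233, 0.0419 and 0.0468 CPM, with a log2 ratio of -10.36 ± 0.135 (SE; edgeR adjusted p = 9.08e-49), or -11.5 without TC-32 replicate 1. HENMT1, the methyltransferase that protects the ends of piRNAs, was at 120, 116 and 112 CPM in TC-71 and at 0, 3 and 0 counts in TC-32, at least 858-fold higher in TC-71. GDF10, a growth factor of the BMP family, was at 116, 115 and 116 CPM against 2, 2 and 0 counts, at least 855-fold higher. PKP1, a desmosomal plakophilin, was at 621, 619 and 649 CPM in TC-71 and at 1.68, 1.93 and 2.11 CPM in TC-32, a log2 ratio of -8.37 ± 0.071 (SE; edgeR adjusted p = 8.45e-57). PKP1 set TC-32 apart from both other lines, with 895 to 950 CPM in A673.

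HTATIP2, DNAJA4, COL9A2, IMPACT, PTPN7, MBD3L3 and AVPR1A made up the rest of the group higher in TC-71. AVPR1A, a vasopressin receptor, was at 46.5, 46.2 and 44.6 CPM in TC-71 and at 0 counts in every TC-32 library, at least 338-fold higher. HTATIP2, which encodes an oxidoreductase, and IMPACT, an inhibitor of the kinase GCN2, were at 33.7 CPM or more in A673, so their low level was on the side of TC-32. MBD3L3 belongs to a cluster of near-identical copies, and its 67.9 CPM in TC-71 is uncertain.

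**Figure D2:**
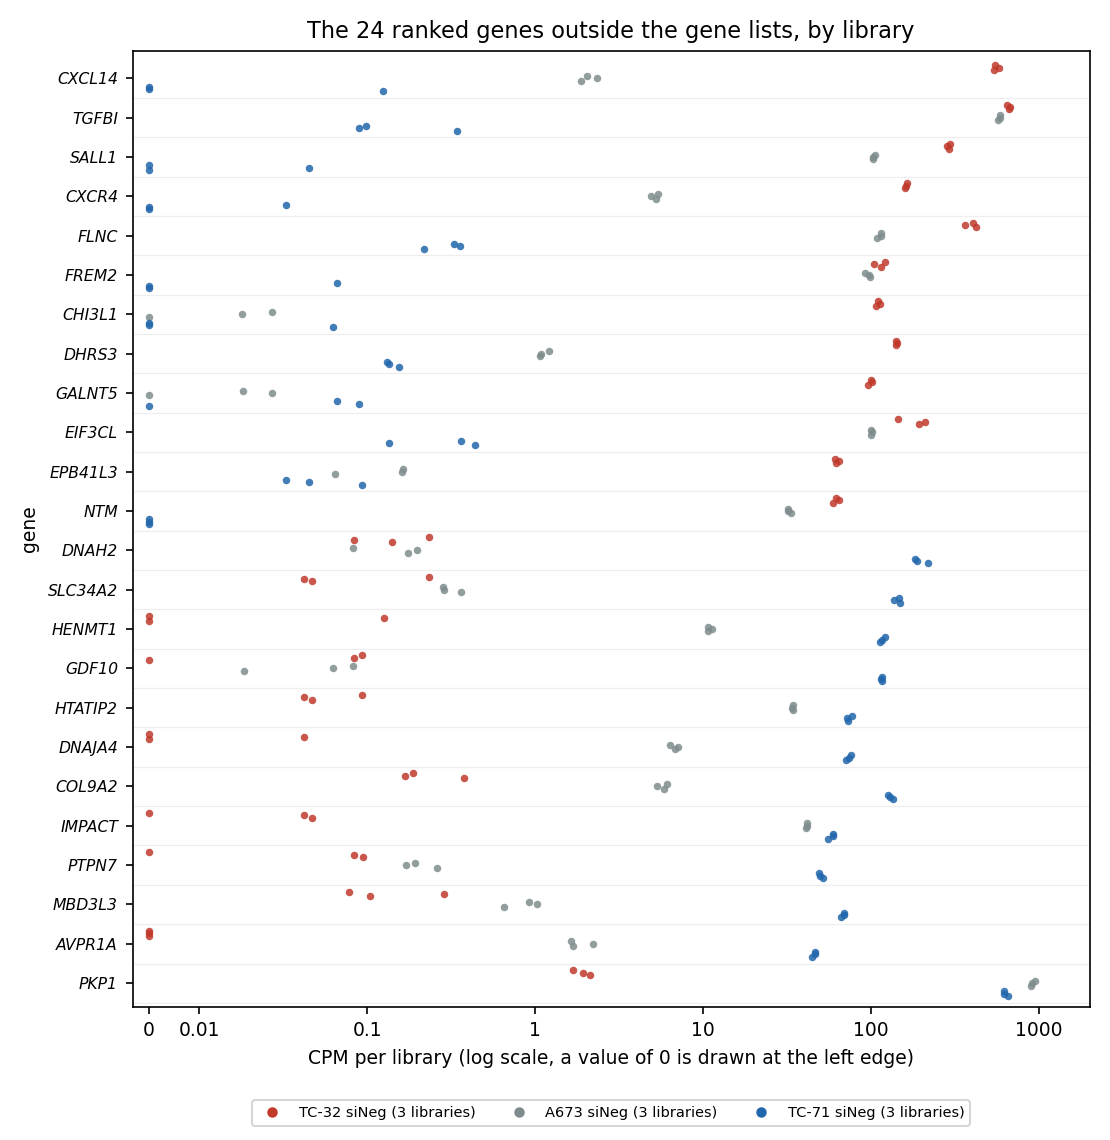
CPM in each library (x axis, log scale, with 0 drawn at the left edge) of the 24 ranked genes (y axis), for the control siRNA libraries of TC-32 (red), A673 (grey) and TC-71 (blue), 3 points per line. In every row the red and blue points are separated, and the grey points lie with TC-32 for TGFBI and with TC-71 for PKP1.

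Several of these genes were at the count floor, taken as 3 counts or fewer in each library of a line, while the other line had a mean of 10 CPM or more. The floor held 144 genes in TC-71 (1.52% of the 9458 genes at that level in TC-32), 130 of them protein-coding. It held 64 genes in TC-32 (0.686% of 9325), 55 of them protein-coding. Protein-coding genes with under 10% of exon bases shared were 100 of the 144 (69.4%) and 50 of the 64 (78.1%). After siFLI1, 105 of the 144 genes (72.9%) were still at 3 counts or fewer in all 3 TC-71 libraries, and 1 reached a mean of 10 CPM. Of the 64 genes, 29 (45.3%) were still at 3 counts or fewer in all 3 siFLI1 libraries of TC-32, and 1 reached a mean of 10 CPM. As for all genes here, the line and the counter cannot be told apart in the 144 genes. Of these, 18 were at the floor in all 6 TC-71 libraries and at 10 CPM or more in all 12 TC-32 and A673 libraries. They included EEF1G and readthrough genes such as ISY1-RAB43, and also SALL1, FREM2, NTM, SOX9, SOX11, NCAM1, CDH2 and COL4A1, whose exons were under 10% shared.

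The promoters of 4 genes at the floor are shown, 2 for each line, as the start regions of genes read in one line and nearly absent from the other. Each run is RefSeq sequence of GRCh38.p14, 250 bases before to 50 after the annotated start, read 5′ to 3′ on the gene's strand, with every CG in capitals. CXCR4 (chr2:136118100-136118399, minus strand) and FREM2 (chr13:38686827-38687126, plus strand) were at the floor in TC-71.
CXCR4: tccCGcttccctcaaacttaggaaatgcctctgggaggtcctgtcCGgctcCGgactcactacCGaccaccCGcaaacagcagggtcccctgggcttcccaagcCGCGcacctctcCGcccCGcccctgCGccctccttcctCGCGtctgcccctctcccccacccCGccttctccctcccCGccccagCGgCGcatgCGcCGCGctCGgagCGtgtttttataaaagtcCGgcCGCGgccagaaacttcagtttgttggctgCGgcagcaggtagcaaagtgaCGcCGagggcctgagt
FREM2: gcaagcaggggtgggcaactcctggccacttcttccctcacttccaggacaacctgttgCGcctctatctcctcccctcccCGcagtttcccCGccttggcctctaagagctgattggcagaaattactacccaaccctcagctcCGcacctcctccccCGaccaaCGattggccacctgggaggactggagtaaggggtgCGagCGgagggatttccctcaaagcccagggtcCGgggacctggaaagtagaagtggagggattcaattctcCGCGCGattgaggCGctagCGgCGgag
HENMT1 (chr1:108661425-108661724, minus strand) and GDF10 (chr10:47299947-47300246, plus strand) were at the floor in TC-32.
HENMT1: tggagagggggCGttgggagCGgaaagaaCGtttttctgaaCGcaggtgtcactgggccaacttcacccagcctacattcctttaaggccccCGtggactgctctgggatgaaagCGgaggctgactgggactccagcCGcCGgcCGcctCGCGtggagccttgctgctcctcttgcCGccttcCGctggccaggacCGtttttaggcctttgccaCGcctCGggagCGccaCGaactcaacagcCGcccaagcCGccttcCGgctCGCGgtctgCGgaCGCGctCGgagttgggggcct
GDF10: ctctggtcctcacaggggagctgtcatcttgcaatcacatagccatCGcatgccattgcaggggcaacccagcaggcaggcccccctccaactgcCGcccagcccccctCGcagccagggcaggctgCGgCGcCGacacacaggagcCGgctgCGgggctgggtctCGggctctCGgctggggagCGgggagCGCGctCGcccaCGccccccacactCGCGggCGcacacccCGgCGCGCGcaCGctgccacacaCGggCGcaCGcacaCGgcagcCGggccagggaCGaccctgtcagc
These windows hold 27, 15, 27 and 29 CG dinucleotides. Of the 14580 promoters matched by symbol among 18869 autosomal protein-coding genes, 39.3%, 66.9%, 39.3% and 33.9% held as many or more. The median was 22 CG over the 93 matched promoters of protein-coding genes at the floor in TC-71 and 22 over the 38 at the floor in TC-32. It was 26 over the 10620 matched promoters of all protein-coding genes tested, and 22 over the 14580 of all autosomal protein-coding genes. Protein-coding genes called at 4-fold toward TC-32 or toward TC-71 also had a median of 22 each. These counts are a description of the reference sequence, not of its state in the cells.

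The fusion's own parts had close levels in both lines. FLI1, counted here with both the fusion and any normal transcript, was at 50.4, 53 and 47.6 CPM in TC-32 and at 46.0, 46.6 and 42.9 CPM in TC-71. The groups stayed apart by a narrow margin, with a log2 ratio of 0.16 ± 0.0569 (SE; edgeR adjusted p = 0.00962), and the sign turned under library size scaling, at -0.19. EWSR1 had a log2 ratio of 0.15 and turned likewise, at -0.21. Of 26 fusion-activated genes tested, 5 were higher in TC-32 by 4-fold or more and 5 higher in TC-71, with a median log2 ratio of -0.25 against -0.03 over all genes. Under library size scaling the counts were 4 and 9 and the median -0.60. CCND1, cyclin D1, was at 1360, 1300 and 1380 CPM in TC-32 and at 1270, 1290 and 1270 CPM in TC-71. These levels were close, with a log2 ratio of 0.08 (edgeR adjusted p = 0.0344) that turned to -0.27 under library size scaling.

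Among the activated genes that did differ, KIT, a receptor tyrosine kinase, was at 119, 118 and 115 CPM in TC-32 and at 4.37, 4.96 and 4.22 CPM in TC-71. Its log2 ratio was 4.71 ± 0.0706 (SE; edgeR adjusted p = 2.91e-46). CAV1, the scaffold protein of caveolae, was higher in TC-32 (3210 against 274 CPM), and so was NKX2-2, a homeodomain factor (58.4 against 11.8 CPM), with 43.9% of its exon bases on the strand opposite another gene. NKX2-2 fell below the 4-fold threshold under library size scaling, at 1.95. LOXHD1, a stereocilia protein, was at 113, 106 and 127 CPM in TC-71 and at 1.16, 1.05 and 0.75 CPM in TC-32. LOXHD1 thus had a log2 ratio of -6.86 ± 0.107 (SE; edgeR adjusted p = 5.57e-39). The Hedgehog pathway factor GLI1 was at 20.3 CPM in TC-71 and 0.94 CPM in TC-32, and the surface protein STEAP1 at 162 and 24.6 CPM.

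Genes that the fusion is known to hold down were mostly higher in TC-32. Of 16 tested, 9 were higher in TC-32 by 4-fold or more and 0 higher in TC-71, with a median log2 ratio of 2.80. At any fold, 14 were higher in TC-32 and 2 in TC-71, the latter being LTBP1, which binds latent TGF-beta (16.5 against 33.7 CPM), and FOXO1, a forkhead factor (9.6 against 14 CPM, with 22.7% of its exon bases within another gene). The 5 named below kept their direction and their 4-fold call under all 15 alternatives fitted. IGFBP5, which binds insulin-like growth factors, was at 2650, 2590 and 2600 CPM in TC-32 and at 3.78, 3.71 and 3.91 CPM in TC-71. This gave a log2 ratio of 9.42 ± 0.0581 (SE; edgeR adjusted p = 1.93e-62), and A673, at 11.6 to 13.4 CPM, lay near TC-71. IGFBP3, another such binding protein, was at 48.4, 54.4 and 53.2 CPM against 3, 0 and 1 counts, at least 478-fold higher in TC-32. TNC, the matrix protein tenascin C, was at 3600, 3460 and 3650 CPM against 16.5, 14.9 and 15.8 CPM, a log2 ratio of 7.82 ± 0.0512 (SE; edgeR adjusted p = 1.61e-61). The WNT inhibitor DKK1 was higher in TC-32 by at least 138-fold, with 10.2% of its exon bases antisense to another gene, and the TGF-beta receptor TGFBR2 was at 48 against 6.2 CPM. This list and its direction after FLI1 knockdown come from the literature, and nothing here measures the activity of the fusion.

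**Figure D3:**
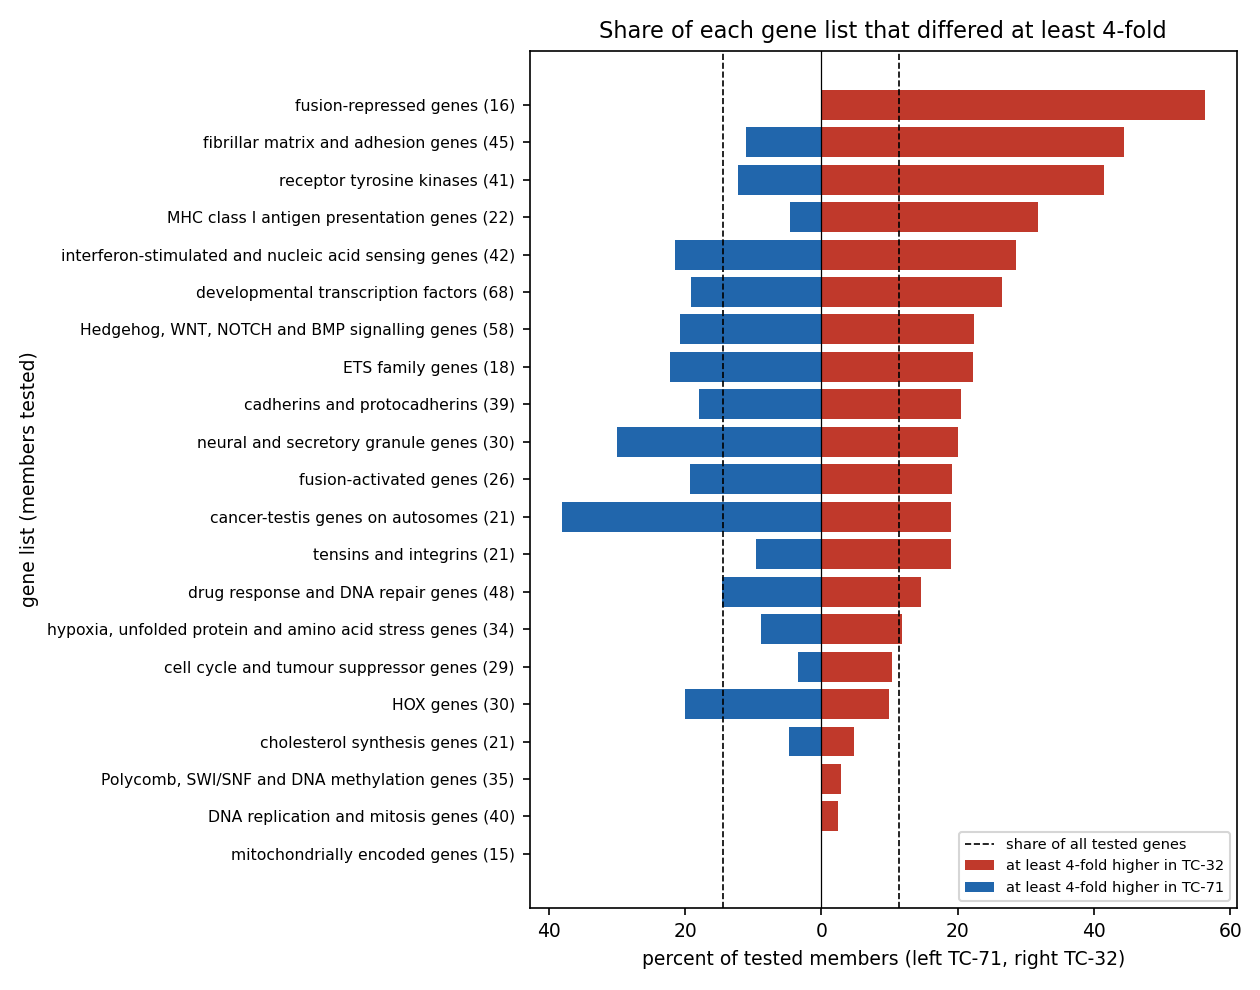
Percent of the tested members of the gene lists shown (y axis, number tested in brackets) that were at least 4-fold higher in TC-32 (red, to the right) or in TC-71 (blue, to the left), with dashed lines at the shares of all tested genes, 11.4% and 14.5%. Fusion-repressed genes, matrix genes and receptor tyrosine kinases reach furthest to the right, cancer-testis and neural genes furthest to the left, and replication and chromatin genes stay near 0.

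Matrix and adhesion genes were mostly on the side of TC-32. Of 45 tested, 20 were higher in TC-32 by 4-fold or more and 5 higher in TC-71, with a median log2 ratio of 1.62 and of 1.27 under library size scaling. Fibroblast markers, several of which are also members of this list, were higher in TC-32 in sum but divided in their 4-fold calls. Their 8 genes summed to 791 to 831 CPM in TC-32 and 210 to 224 CPM in TC-71, and of the 6 tested 2 were called toward each line. COL3A1 held 654 CPM of the TC-32 sum, while POSTN and LUM were at 0.232 and 0.0311 CPM there, and the part of fibroblast-like cells in the result was not tested. FN1 (chromosome 2, 215360440 to 215436073, GRCh38), which encodes fibronectin, was at 13300, 12800 and 12500 CPM in TC-32 and at 24.8, 24.3 and 28.6 CPM in TC-71. That is a log2 ratio of 8.95 ± 0.0543 (SE; edgeR adjusted p = 2.23e-52), and TC-71 was also below A673, which held 7960 to 8030 CPM. COL4A1 and COL4A2, the neighbouring genes of the basement membrane collagen IV, moved together. COL4A1 was at 115, 109 and 116 CPM in TC-32 and at 0 counts in every TC-71 library, at least 1040-fold higher. COL4A2 was at 236, 219 and 242 CPM in TC-32 against 0.0329, 0 and 0.155 CPM, and A673 held 191 CPM or more of both. After siFLI1, TC-71 reached a mean of 6720 CPM of FN1 but 0.0108 CPM of COL4A1.

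COL11A1, a cartilage collagen, was at 252 CPM in TC-32 and 0.0673 CPM in TC-71, and A673 was low too, at 0.908 to 1.12 CPM. NCAM1, a neural adhesion molecule, was at 191, 190 and 195 CPM in TC-32 and at 1, 0 and 1 counts in TC-71, at least 1770-fold higher. CD44, the hyaluronan receptor, was at 10.1 CPM in TC-32, at least 93.2-fold above TC-71. The matrix protein SPARC was at 967 against 71.3 CPM. Collagen I did not follow, with COL1A1 at 86.5 and 73.2 CPM, a log2 ratio of 0.24 that turned to -0.11 under library size scaling. In the other direction, the proteoglycan decorin, DCN, was at 16.7, 15.9 and 14.7 CPM in TC-71 and at 0.186, 0.0838 and 0.0468 CPM in TC-32. Laminin alpha 2, LAMA2, was likewise higher in TC-71, at 32 against 0.841 CPM.

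Cell surface adhesion genes were divided. Of 39 cadherins and protocadherins tested, 8 were higher in TC-32 by 4-fold or more and 7 in TC-71. CDH2, N-cadherin, was at 22.0, 20.2 and 20.9 CPM in TC-32 and at 0 counts in every TC-71 library, at least 194-fold higher, and A673 held 124 to 128 CPM. CDH11, a mesenchymal cadherin, was close in both lines, at 192 and 166 CPM, and its log2 ratio of 0.22 turned to -0.14 under library size scaling. PCDH8 was at 28.7 CPM in TC-71 and 0.428 CPM in TC-32, and DCHS2, a large protocadherin, was at 111, 107 and 114 CPM in TC-71 against 3, 0 and 1 counts, at least 819-fold higher. Of 21 tensins and integrins, 4 were higher in TC-32 and 2 in TC-71, and 3 each under library size scaling. TNS3, tensin 3, a focal adhesion protein, was at 50.7, 51.8 and 57 CPM in TC-32 and at 0, 0 and 3 counts in TC-71, at least 489-fold higher, and TNS1 was at 102 and 118 CPM. Integrin beta 5, ITGB5, was at 185 against 19.2 CPM, and integrin alpha 4, ITGA4, at 0.957 against 53.6 CPM, with 26.4% of its exon bases antisense to another gene.

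Receptor tyrosine kinases with 4-fold calls were also mostly higher in TC-32. Of 41 tested, 17 were higher in TC-32 by 4-fold or more and 5 in TC-71, with a median log2 ratio of 1.09 and of 0.73 under library size scaling. FGFR2, a fibroblast growth factor receptor, was at 57.1, 59.9 and 56.8 CPM in TC-32 and at 0 counts in TC-71, at least 533-fold higher, and A673 was at 0.516 CPM or less. KDR, the main VEGF receptor, was at 33.6, 35.2 and 34.0 CPM against 0 counts, at least 315-fold higher, and the neurotrophin receptor gene NTRK2 exceeded TC-71 by at least 267-fold. IGF1R, the receptor long studied in Ewing sarcoma, was at 156, 150 and 161 CPM in TC-71 and at up to 238 CPM in TC-32, the lines apart. That difference was small, 1.49-fold, with a log2 ratio of 0.58 ± 0.042 (SE; edgeR adjusted p = 1.36e-17). Toward TC-71, FGFR3 was at 35.4 against 3.98 CPM and the cytokine receptor FLT3 at 6.24 CPM against 1, 1 and 0 counts.

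Developmental transcription factors separated the lines gene by gene rather than as a group. Of 68 tested, 18 were higher in TC-32 by 4-fold or more and 13 in TC-71, with a median log2 ratio of 0.14. Under library size scaling the larger side turned, with 14 and 16 and a median of -0.21. TBX5 (chromosome 12, 114353911 to 114408442, GRCh38), a regulator of heart and forelimb, was at 304, 304 and 307 CPM in TC-32 and at 0 counts in every TC-71 library, at least 2800-fold higher. A673 was low as well, at 1.68 to 2.01 CPM. OTX2, a forebrain homeodomain factor, was at 236, 233 and 221 CPM against 3, 1 and 1 counts, at least 2120-fold higher, and A673 held 122 to 126 CPM. SOX1, a neural progenitor factor, was at 113, 118 and 117 CPM against 0 counts, at least 1070-fold higher, and SOX11 was at least 739-fold higher. TC-71 carried a different set. PAX7, a factor of muscle stem cells and neural crest, was at 130, 130 and 143 CPM in TC-71 and at 1.12, 1.05 and 1.64 CPM in TC-32, a log2 ratio of -6.74 ± 0.0941 (SE; edgeR adjusted p = 2.11e-47). GATA4, a heart and endoderm factor, was at 26.6, 23.7 and 25.9 CPM against 1, 2 and 0 counts, at least 188-fold higher in TC-71. PAX1, a sclerotome factor, was at least 105-fold higher, and both GATA4 and PAX1 were at 0.161 CPM or less in A673.

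HOX genes, which mark position along the body axis, differed most at the posterior end of the HOXA cluster. Of 30 tested, HOXB8, HOXB13 and HOXD4 were higher in TC-32 by 4-fold or more and HOXA9, HOXA10, HOXA11, HOXA13, HOXC4 and HOXC8 in TC-71. HOXA10 was at 18.5, 19.3 and 20.7 CPM in TC-71 and at 0.326, 0.0838 and 0 CPM in TC-32, with 16.4% of its exon bases antisense and 9.93% in the sense of other genes. HOXA11 (chromosome 7, 27181157 to 27185232, GRCh38) was at 16.8, 14.9 and 15.1 CPM in TC-71 and at 0 counts in every TC-32 library, at least 115-fold higher, with 27.2% of its exon bases antisense to another gene. HOXA13 was at 5.88, 5.28 and 5.62 CPM against 2, 0 and 0 counts, at least 41.3-fold higher. HOXA2 to HOXA6 had line means of 0.0408 CPM or less (HOXA5 the highest), and A673 held at most 0.00921 CPM of HOXA10, HOXA11 and HOXA13. HOXD13, known for its high level in Ewing sarcoma, was at 75.3 and 108 CPM, and HOXD10 at 74.4 and 63.3 CPM, a log2 ratio of 0.23 that turned to -0.12 under library size scaling. HOXD4 was at 30.2, 34.0 and 31.8 CPM in TC-32 and at 1.22, 1.43 and 0.745 CPM in TC-71, the lines apart. HOXB13 was at 284 against 62.7 CPM, a log2 ratio of 2.18 that fell to 1.83 under library size scaling.

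**Figure D4:**
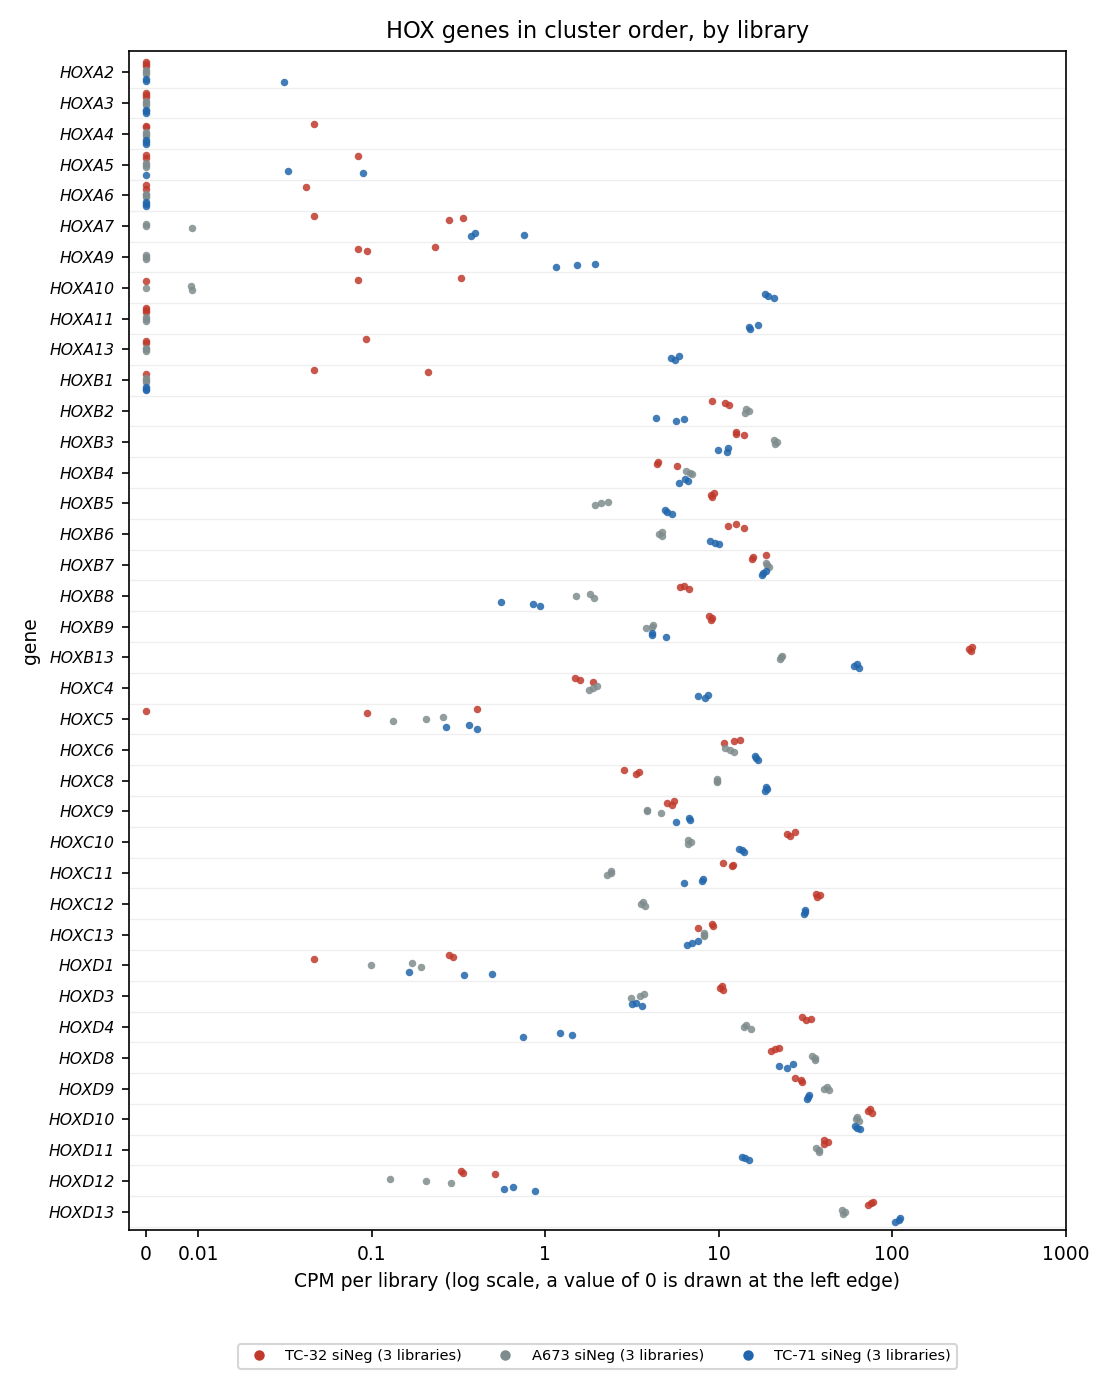
CPM in each library (x axis, log scale, with 0 drawn at the left edge) of HOX genes in cluster order (y axis), for the control siRNA libraries of TC-32 (red), A673 (grey) and TC-71 (blue), 3 points per line. The blue points of HOXA10, HOXA11 and HOXA13 stand alone between 5.28 and 20.7 CPM, and the blue points of HOXD4 and HOXB13 lie below the red.

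Neural genes moved in both directions. Of 30 tested, 6 were higher in TC-32 by 4-fold or more and 9 in TC-71, with a median log2 ratio of -0.59. The 8 neuroblastoma markers summed to 72.7 to 80.5 CPM in TC-32 and 37.5 to 41.2 CPM in TC-71. Of the 4 tested, however, 1 was called toward TC-32 and 2 toward TC-71, with a median log2 ratio of -1.08. The part of these markers in the results was not tested. NEFH, the heavy neurofilament subunit, was at 773, 777 and 808 CPM in TC-71 and at 1.02, 1.01 and 1.17 CPM in TC-32, a log2 ratio of -9.52 ± 0.075 (SE; edgeR adjusted p = 3.28e-58). A673 lay between, at 31.0 to 31.6 CPM. STMN4, a neuronal stathmin that regulates microtubules, was at 91.4 CPM in TC-71 and 0.149 CPM in TC-32, and the synaptic adhesion gene NLGN1 was higher in TC-71 by at least 98.1-fold. TUBB3, neuronal beta tubulin, was at 65.4 CPM in TC-32 and 0.869 CPM in TC-71, but 21.3% of its exon bases lie within another gene on the same strand, and A673 held 149 CPM or more.

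Antigen presentation genes with 4-fold calls were mostly higher in TC-32. Of 22 tested, 7 were higher in TC-32 by 4-fold or more and 1, HLA-F, in TC-71, with a median log2 ratio of 1.14. NLRC5, the transactivator of class I genes, was at 18.8, 17.1 and 18.6 CPM in TC-32 and at 0.887, 0.85 and 0.745 CPM in TC-71, a log2 ratio of 4.45 ± 0.141 (SE; edgeR adjusted p = 3.29e-32). PSMB8, an immunoproteasome subunit, was at 31.5 against 1.22 CPM, with 17.3% of its exon bases antisense, and ERAP2, a peptidase that trims peptides, at 36.7 against 1.4 CPM. B2M, the light chain, was at 768, 791 and 717 CPM against 275, 268 and 244 CPM. Its log2 ratio of 1.53 ± 0.0436 (SE; edgeR adjusted p = 1.09e-29) was below the 4-fold threshold. HLA-C was at 89.1 and 55.8 CPM.

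Interferon-stimulated and nucleic acid sensing genes moved in both directions. Of 42 tested, 12 were higher in TC-32 by 4-fold or more and 9 in TC-71, with a median log2 ratio of -0.02. MX2, an antiviral GTPase, was at 75.9, 80.3 and 80.8 CPM in TC-32 and at 0 counts in every TC-71 library, at least 727-fold higher. TRIM22, an antiviral ubiquitin ligase, was at least 188-fold higher, and A673 held 0.046 CPM or less of MX2 and 0.681 CPM or less of TRIM22. IFI16, a DNA sensor, was higher in TC-32 with a log2 ratio of 3.22 ± 0.0542 (SE; edgeR adjusted p = 3.87e-43). The cytosolic DNA sensor cGAS, listed as MB21D1, was at 27.6, 28.0 and 26.6 CPM in TC-71 and at 0, 1 and 0 counts in TC-32, at least 203-fold higher in TC-71. Its partner STING, listed as TMEM173, was present in both lines, at 33.1 and 44.4 CPM. IFI44 was at 31.0 CPM in TC-71 and 0.286 CPM in TC-32.

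Of 29 cell cycle and tumour suppressor genes tested, 3 were higher in TC-32 by 4-fold or more and 1 in TC-71. Together these were 13.8% of the genes tested in the list, against 25.8% of all genes tested. CDKN1A, the p21 inhibitor of cyclin-dependent kinases, was at 37.8, 38.8 and 40.9 CPM against 10.9, 11.5 and 12.1 CPM. Its log2 ratio of 1.77 ± 0.0726 (SE; edgeR adjusted p = 1.88e-27) was below the 4-fold threshold. MDM2, a ubiquitin ligase, was at 116 and 111 CPM, a log2 ratio of 0.07 (edgeR adjusted p = 0.172). Its ratio turned to -0.29 under library size scaling and passed the threshold, at 0.12, without TC-71 replicate 2. MTAP, a methionine salvage enzyme encoded next to CDKN2A, was at 8.87, 9.62 and 8.29 CPM in TC-71 and at 0.698, 0.335 and 0.796 CPM in TC-32, against 47.2 to 51.1 CPM in A673. CDKN2A itself was at 0.539 CPM or less in the mean of either line. MYC was higher in TC-71, at 562 against 209 CPM, below the 4-fold threshold, and MYCN was at 6.97 CPM in TC-32 and 0.913 CPM in TC-71.

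Among ETS family genes, 4 of 18 tested were higher in TC-32 by 4-fold or more and 4 in TC-71. ETV1 was at 33.4 against 2.68 CPM and ETV5 at 0.882 against 23.3 CPM, so these related factors of the PEA3 group differed in opposite directions. ETS1 was at 13.4, 12.8 and 11.6 CPM in TC-32 and at 7.07, 8.18 and 7.77 CPM in TC-71. Its log2 ratio of 0.72 ± 0.101 (SE; edgeR adjusted p = 7.41e-09) was below the 4-fold threshold. Of 58 genes of the Hedgehog, WNT, NOTCH and BMP pathways, 13 were higher in TC-32 by 4-fold or more and 12 in TC-71, which turned to 11 and 14 under library size scaling. The ligand genes were led by BMP7, at 54.6, 54.2 and 52.4 CPM in TC-32 and at 0 counts in TC-71, at least 495-fold higher. GREM1, a secreted BMP antagonist, was higher in TC-32 by at least 411-fold, and the ligand WNT5A was at 241 against 8.66 CPM. Downstream, LEF1, a nuclear effector of WNT, was at 25.0 CPM in TC-71 and 0.0625 CPM in TC-32. ID4, an inhibitor of helix-loop-helix factors, was at 79.8 against 1.53 CPM, also higher in TC-71.

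Germline genes were called in both directions. Of 21 autosomal cancer-testis genes tested, 8 were at least 4-fold higher in TC-71 and 4 in TC-32. CTCFL, the testis paralogue of CTCF, was at 167, 164 and 159 CPM in TC-71 and at 0.465, 0 and 0.0937 CPM in TC-32, a log2 ratio of -9.79 ± 0.158 (SE; edgeR adjusted p = 4.76e-23). The ratio was -11.69 without TC-32 replicate 1 and -9.16 without TC-32 replicate 2. A673 was as low as TC-32, at 0.193 CPM or less. PRAME was at 169 against 33.5 CPM. LIN28A, a repressor of let-7 microRNAs, was at 11, 11.2 and 11.3 CPM in TC-32 and at 0 counts in TC-71, at least 103-fold higher in TC-32.

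Drug response and DNA repair genes were close to the background, with 7 of 48 tested at least 4-fold higher in each line, and 6 and 8 under library size scaling. ABCB1, the multidrug efflux pump, was at 7.23, 6.93 and 6.77 CPM in TC-71 and at 0 counts in every TC-32 library, at least 51.6-fold higher. ALDH1A1, an aldehyde dehydrogenase, was at 493 CPM in TC-32 and 11.9 CPM in TC-71. SLFN11, whose level tracks response to DNA-damaging drugs in many lines, was at 338, 334 and 331 CPM against 194, 193 and 205 CPM. Its log2 ratio of 0.76 ± 0.0403 (SE; edgeR adjusted p = 6.89e-23) was below the 4-fold threshold.

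Replication, chromatin and mitochondrial genes had few 4-fold calls. Of 40 DNA replication and mitosis genes, 1, the ribonucleotide reductase subunit RRM2, was called at 4-fold, at 431 against 100 CPM, a log2 ratio of 2.10 that fell to 1.75 under library size scaling. Of 35 Polycomb, SWI/SNF and DNA methylation genes, 1 was called, the chromatin remodelling ATPase SMARCA2, at 116 against 14.5 CPM. None of 15 mitochondrially encoded genes was called at 4-fold by edgeR, although 14 had an adjusted p under 0.05, and MT-CO1 was at 21800 and 16700 CPM. Of 21 cholesterol synthesis genes, 1 was called in each direction, and 1 and 2 under library size scaling. Of 34 hypoxia and stress genes, 4 were higher in TC-32 and 3 in TC-71, and 2 and 3 under library size scaling. The stress genes CHAC1 and DDIT4 were uneven between the TC-71 libraries, with CHAC1 at 52.9, 44.9 and 68.6 CPM in TC-71 against 3.63, 3.77 and 3.42 CPM in TC-32, and DDIT4 at 107, 88.6 and 135 CPM against 11.1, 11.7 and 12 CPM.

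Along the autosomes, the median log2 ratio of protein-coding genes ranged from -0.53 on chromosome 14 to 0.48 on chromosome 5, a gap of 1.01. Chromosomes 4 (-0.50) and 13 (-0.49) were also low, and chromosomes 9 (0.42) and 16 (0.35) high, with 0.08 over all protein-coding genes. Genes are not replicates, so these medians carry no test. On chromosome 19, 76 of 244 zinc finger genes (31.1%) were higher in TC-32 by 4-fold or more and 2 (0.82%) in TC-71, with a median of 0.84. The 780 other protein-coding genes tested there had 80 and 81 calls and a median of 0.13.

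Of these 76 genes, 36 stood in 4 runs of at least 5 neighbours, each gene in a run at least 4-fold higher in TC-32. Neighbours are genes next to each other among the tested protein-coding genes, with all other genes between them passed over. The longest, from ZNF738 to ZNF254, held 15 genes. Its summed level was 158, 150 and 154 CPM in TC-32, 11.6, 12.7 and 10.7 CPM in TC-71, and 94.3 to 99.4 CPM in A673. Another, from ZNF577 to ZNF841, held 8 genes at 121, 131 and 123 CPM against 11.1, 11.5 and 10.8 CPM, with 109 to 111 CPM in A673. ZNF43 was at 23.6 against 0.193 CPM and ZNF91, a repressor of retroelements, at 19.8 against 0.0581 CPM. These genes arose by duplication and resemble each other, and both RSEM lines were above the Subread line. As for all genes here, the line and the counter cannot be told apart. Outside that family there were 15 runs higher in TC-32 and 3 higher in TC-71, and several held near-identical copies, such as SMN1 and SMN2, whose counts are uncertain. A pair of runs without such copies was picked after the values were seen. On chromosome 12, KIF21A, a kinesin (60.2 CPM in TC-71 against 0.635), and LRRK2, a kinase (9.07 CPM against 0), lay in a run of 6 genes higher in TC-71. On chromosome 21, BACE2, a protease (241 against 11 CPM), lay beside MX2 in a run of 5 genes higher in TC-32.

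**Figure D5:**
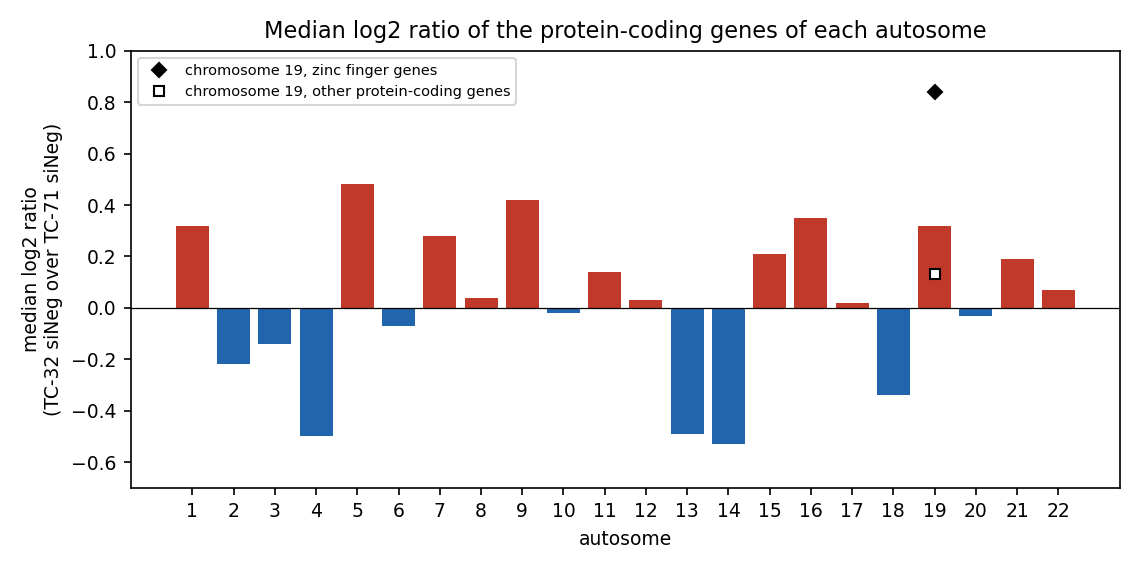
Median log2 ratio of TC-32 over TC-71 (y axis) of the tested protein-coding genes on each autosome (x axis), red above and blue below 0. For chromosome 19, the diamond gives the zinc finger genes, at 0.84, and the square the other protein-coding genes, at 0.13.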

How the data were processed

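RNA was measured as messenger RNA libraries made with a stranded kit, per the labels' protocols. The TC-32 and A673 tables, as deposited, hold expected counts and name RSEM. The TC-71 table, as deposited, holds whole read counts and names Subread. The submitters' processing notes name cutadapt 4.4, STAR 2.7.3, featureCounts, Subread 2.0.3, limma 3.38.3 and GRCh38. The strand setting is not given in the sources used here. Expected counts were rounded. Of 58336 identifiers, 582 were not found in GENCODE 44 and 2855 lay on X or Y, and both were left out, leaving 54899 genes. TC-32 and TC-71 siNeg libraries were compared with edgeR 4.0.16 in R 4.3.3 (filterByExpr, TMM factors, robust quasi-likelihood F-test, Benjamini-Hochberg adjustment over 16256 genes). A 4-fold call needed both an adjusted p under 0.05 and a log2 ratio of 2 or more in size. The test was also run on simulated counts.

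A fold against libraries at 3 counts or fewer was taken with each held at 3, so "at least" refers to the counts as read. It is not a confidence limit for the true level. Where a spread is printed, it is an SD for CPM and an SE for log2 ratios, and many line means and ratios are given without one. The named genes are members of the lists. Outside them, they are the 12 genes per line with the largest log2 ratio, the low line held at 3 counts or more, among protein-coding genes called at 4-fold. These also had a mean of 10 CPM or more, no overlap between libraries and under 10% of exon bases shared. EEF1G and the genes of the zinc finger and other runs were added after their values were seen. The comparison, the members and the lists were chosen with earlier results of these data known. Same-numbered replicates correlated at -0.0105, 0.0343 and 0.0881 in their deviations, so the numbers were not taken to pair the libraries, and replicate pairs of a line differed by more than sampling noise. Alternatives were other scalings and filters, DESeq2 1.42.0, limma-voom (limma 3.58.1), unrounded counts, all 18 libraries, and each library left out. Some results, among them those of 1 list, are not reported here.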

Additional observations from a re-analysis of the deposited data

How the results depend on the processing

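Line, table and counter cannot be told apart, so these settings bear on the fit only. Several alternatives (RLE factors, library size alone, a mean of at least 10 counts, DESeq2, limma-voom, unrounded counts, all 18 samples and glmTreat) left each count of calls within 1.5 times. Without a low-count filter, 4212 genes were higher in TC-71. A 2-fold threshold gave 3220 genes higher in TC-32 and 3846 in TC-71, and a 16-fold one 1020 and 1086. Protein-coding genes alone gave 1385 higher in TC-71. Restricting the fit to genes without exon overlap whose expected counts are whole gave 5482 calls, 593 and 1142, a set that favours genes absent from TC-32, which are whole by construction. Protein-coding genes without exon overlap, chosen after seeing the data, gave 596 and 746.

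Leaving out 1 library gave 13896 to 14320 calls, 1897 to 2000 higher in TC-32 and 2344 to 2704 higher in TC-71. The replicate block gave 14075 calls, 1850 and 2353, with the same 4-fold counts in every list. The genes at the floor in TC-71 were 1.52% of those at 10 CPM or more in TC-32. This became 0.782% at exactly 0 counts, 2.31% at 5 CPM, 0.997% at 20 CPM, 1.67% with whole counts and no overlap, 1.6% for protein-coding genes without overlap, and 1.52% to 1.73% without 1 library. The reverse share of 0.686% became 0.0858%, 1.27%, 0.445%, 1.01%, 0.783%, and 0.696% to 0.858%. The gap between autosome medians was 1.19 and 1.09 for whole counts and all biotypes, and 0.99 to 1.03 without 1 library.

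Of 1920 single-gene values, those of FLI1 (-0.19), EWSR1 (-0.21), CCND1 (-0.27), COL1A1 (-0.11), HOXD10 (-0.12), MDM2 (-0.29) and CDH11 (-0.14) turned, all under library size alone. FLI1 (0.12) and CCND1 also missed the threshold without some libraries, and MT-CO1 (0.03) under library size alone. The cause was not tested.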
